A study of Oryza sativa Japonica Group with 9 samples.

Results

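The comparison was jmj705 mutant against wild-type shoot apex, over 4 of the 9 samples of the series. The apex is the 2 to 3 mm tip of a 5-day-old rice seedling of the cultivar Hwayoung, which holds the shoot meristem and the youngest leaves. Its messenger RNA was measured by RNA sequencing in 2 libraries from jmj705 mutant apices and 2 from wild-type apices, called biological repeats by the submitters. 2 libraries from wox11 mutant apices were made in the same way, and are set beside them where they help to read a level. All seedlings grew on medium with 2% sucrose in days of 14 h light (28 °C) and nights of 10 h (24 °C), per the labels' protocols. The sources used here do not give the lesion in jmj705, the number of lines it stands for or the hour of collection. The 3 remaining samples are chromatin libraries from apices that over-express JMJ705, of which 2 have lists of JMJ705 peaks.

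JMJ705 is a jumonji-type histone demethylase that takes off the repressive methyl mark placed on histone H3 by the Polycomb complex. Genes that carry this mark are typically silent or lowly expressed in the tissue where they carry it. In rice JMJ705 is known for its part in the response to jasmonate and to pathogens, and WOX11 is a homeobox transcription factor known for crown root and shoot growth.

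Of 57567 loci, 21480 had a gene name, a sound estimate in all 6 RNA libraries and at least 1 FPKM in at least 2 of them. FPKM counts fragments per length of transcript and per size of library, so the total depth is unknown, and named loci with a sound estimate summed to between 700090 and 820527 FPKM per library. Differences are given as log2(FPKM + 1), jmj705 minus wild type, with the standard error (SE) of limma's fit, and this scale understates the change of low loci. A locus is said to have risen or fallen where limma's moderated test gave an adjusted p under 0.05 after Benjamini-Hochberg adjustment over the 21480 loci. The p-values measure the spread between these libraries. Pearson's correlation of log2(FPKM + 1) across loci was 0.98 within jmj705, 0.982 within wild type and 0.962 to 0.977 between them. The 6 meristem markers summed to 162 and 210 FPKM in jmj705 and to 172 and 194 FPKM in wild type. The 4 vascular markers summed to 40.9 and 49.9 FPKM in jmj705 and to 44.1 and 38.3 FPKM in wild type. For 2 root markers it was 9.07 and 9.52 FPKM in jmj705, and 11.7 and 6.56 FPKM in wild type. The 4 seed and 4 flower markers were each under 1 FPKM in all 6 libraries.

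JMJ705 itself (LOC_Os01g67970, chromosome 1, 39493115 to 39500079 in the deposited files' coordinates, whose build the sources used here do not name) was measured first. It had 13.7 and 12.5 FPKM in the libraries labelled jmj705, 8.39 and 8.10 FPKM in the wox11 libraries, and 7.41 and 6.73 FPKM in the wild-type libraries. The jmj705 values lay above all the others, against what the label would give for a lost transcript, and the difference of 0.81 (SE 0.13) missed the threshold (limma adjusted p = 0.0634). The part of the transcript that a lesion would remove was not analysed here, so these values do not check the label. Every direction below rests on it. WOX11 (LOC_Os07g48560) had 4.57 and 7.56 FPKM in the libraries labelled jmj705 and 4.52 and 5.00 FPKM in wild type, and the groups overlapped (difference 0.26, SE 0.23, limma adjusted p = 0.725).

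The set of changed loci was small and leaned towards rises. In jmj705 apices 69 loci rose and 17 fell, which together are 0.400% of those tested (0.321% higher, 0.0791% lower). Of the called loci 80.2% were higher in jmj705. The rises were also the larger changes. Their differences ran from 0.87 to 7.38 with a median of 1.97, and the median was 2.02 over the 60 risers that were not listed at 0 in both wild-type libraries. Those of the fallers ran from -0.77 to -3.72 with a median of -1.19. On this scale 58 of those 60 risers and 12 of 17 fallers changed by over 2-fold, and 30 of those risers by over 4-fold. The only faller past 4-fold was listed at 0 in both jmj705 libraries, so its fitted difference of -3.72 depends on the pseudocount. Cufflinks gives a confidence interval with each FPKM value, and both jmj705 intervals lay wholly above both wild-type intervals for 42 of 69 risers (60.9%), while 3 of 17 fallers had theirs wholly below. Over all tested loci the intervals stood apart in this way for 50 loci upward and 4 downward.

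The lean towards rises belonged to the loci of smallest p and not to the transcriptome as a whole. Of the 20 loci with the smallest p 95% were higher in jmj705, of the first 200 it was 70%, of the first 1000 it was 56.3% and of all loci tested 46.3%. At an unadjusted p under 0.05 there were 1320 loci higher (6.15%) and 1256 lower (5.85%). Both jmj705 values lay above both wild-type values at 3767 loci (17.5%) and below them at 4611 (21.5%). With at least a 2-fold gap between the nearest values the lean returned, with 290 loci higher (1.35%) and 68 lower (0.317%). The median difference of all loci was -0.02.

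**Figure D1:**
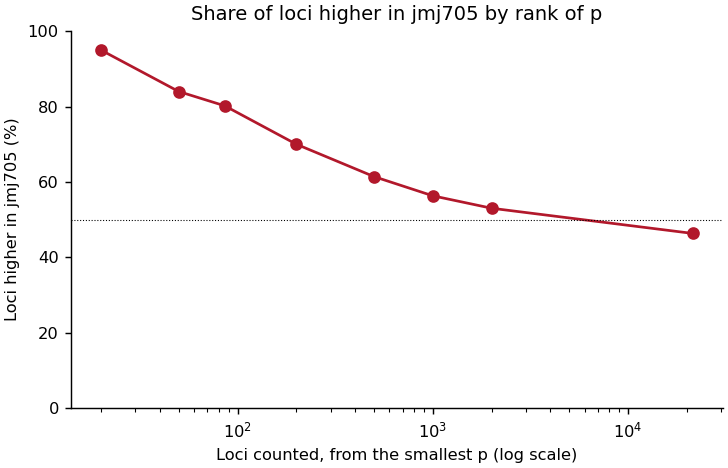
Share of loci higher in jmj705 than in wild type (vertical axis, %) among the loci of smallest p, from 20 up to all 21480 (horizontal axis, log scale). The dotted line marks 50%, and the share is 95% at 20 loci, 80.2% at the 86 called loci and 46.3% over all loci.

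The number of called loci depended on single libraries. It was 35 without jmj705 replicate 1, 20 without jmj705 replicate 2 and 23 without wild-type replicate 1, with 31, 19 and 22 of them higher. Without wild-type replicate 2 it was 64, with 50 higher. When each of these 4 libraries was left out in turn, 17 of the 86 loci kept their call every time, 16 higher and 1 lower. Of the 16 risers 13 averaged under 1 FPKM in wild type. On the threshold itself, the last locus inside was LOC_Os03g28160, with 3.36 and 2.82 FPKM in jmj705 and 15.5 and 9.31 FPKM in wild type, and its call was kept without wild-type replicate 2 and lost without any 1 of the other 5 libraries. The first outside was IAA13 (LOC_Os03g53150), an Aux/IAA repressor of auxin signalling, with 49.4 and 62.7 FPKM in jmj705 and 28.3 and 24.8 FPKM in wild type (limma adjusted p = 0.0501).

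In the fit used here most risers (56.5%) averaged under 1 FPKM in wild type, a share that moved with the processing. The median riser averaged 8.51 FPKM in jmj705 and 3.61 FPKM in wox11, against 0.568 FPKM in wild type. The median faller averaged 8.18 FPKM in jmj705 and 11.7 FPKM in wox11, against 25.8 FPKM in wild type, and the median of all tested loci was 11.2 FPKM in jmj705 and 11.4 FPKM in wild type. Since a locus that is low in wild type is more easily called a riser, these levels describe the set and test nothing. Without one library in turn the wild-type median of the risers called then was 0.316 and 0.0692 FPKM (without jmj705 replicates 1 and 2), 0.289 and 1.51 FPKM (without wild-type replicates 1 and 2) and 1.21 and 0.977 FPKM (without wox11 replicates 1 and 2).

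By wild-type level, 39 of the 69 risers (56.5%) and 0 of the 17 fallers averaged under 1 FPKM in wild type, a class that held 920 loci or 4.28% of those tested. A locus of that class passed the filter mainly through other libraries, so it could hardly fall. Between 1 and 10 FPKM in wild type 21 loci rose and 2 fell, and between 10 and 100 FPKM 9 rose and 14 fell. Above 100 FPKM 0 rose and 1 fell, and 19 loci were higher and 54 lower there at an unadjusted p under 0.05 by limma. The wox11 libraries gave no value to this contrast, though they entered the filter and the estimate of the spread. By the wox11 level 23 of 687 loci under 1 FPKM rose (3.35%) and 0 fell, at limma's adjusted p, while at an unadjusted p under 0.05 99 were higher and 53 lower. All 23 of these risers were also under 1 FPKM in both wild-type libraries, so they passed the filter only through jmj705 and their count supports nothing. In the classes from 1 to 10, 10 to 100 and above 100 FPKM in wox11, 24, 18 and 4 loci rose, and 7, 10 and 0 fell. The share of risers under 1 FPKM in wild type was 27.4% where at least 5 FPKM was asked for in 2 libraries, and 90.7% where no filter was set. Where loci that join genes or share coordinates were left out, it was 48.5%.

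**Figure D2:**
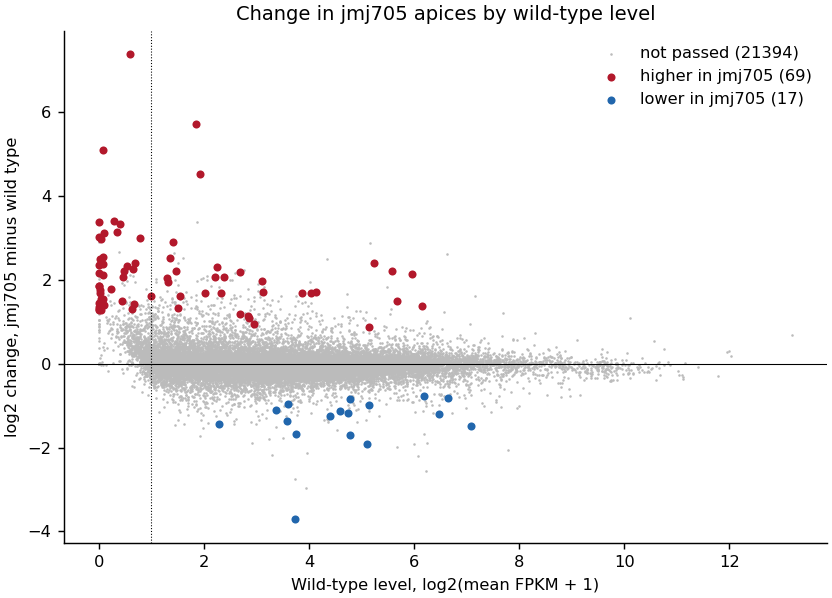
Each point is a tested locus, with its wild-type level as log2(mean FPKM + 1) across and its log2 change, jmj705 minus wild type, upward. Red points are the 69 risers, blue the 17 fallers and grey the rest, and the dotted line marks 1 FPKM, to the left of which 39 risers and 0 fallers lie.

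**Figure D3:**
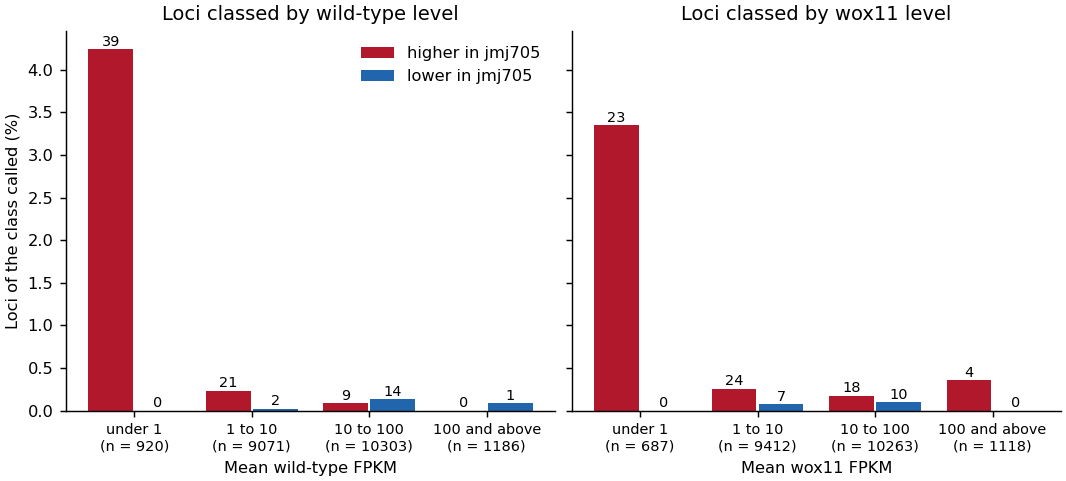
Percent of the loci in each level class that were higher (red) or lower (blue) in jmj705 at an adjusted p under 0.05, with the number of loci over each bar. On the left the classes come from the wild-type mean FPKM and on the right from the wox11 mean FPKM, with risers at 4.24% and 3.35% of the lowest classes, whose loci could pass the filter through the jmj705 libraries alone.

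A group of loci was close to 0 in wild type and expressed in jmj705. Both wild-type values were under 0.1 FPKM at 59 tested loci. At 29 loci both jmj705 values were also at least 1 FPKM, and 21 of these were called, beside 0.400% of all loci. The mirror image, jmj705 under 0.1 and wild type at least 1 FPKM, was seen at 3 loci, of which 1 was called. With a wider gap, under 1 against at least 5 FPKM, there were 14 loci in the upward and 1 in the downward direction. In wox11 apices 5 of the 29 loci were at 1 FPKM or more in both libraries and 12 were under 0.1 FPKM in both. Those 12 passed the filter only through jmj705. All these groups were picked by the values that enter the contrast, so their counts describe and test nothing. Of the 69 risers 9 were listed at 0 in both wild-type libraries, and 5 of these also in both wox11 libraries.

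The locus with the largest rise was LOC_Os01g35330 (chromosome 1, 19549142 to 19550352), for which the files give no description. It had 220 and 287 FPKM in jmj705, 0.919 and 0.611 FPKM in wox11, and 0.518 and 0.504 FPKM in wild type. The mean was 254 ± 47.6 FPKM in jmj705 and 0.511 ± 0.0103 FPKM in wild type (SD, n = 2 each), a ratio of 496, and the difference of 7.38 (SE 0.17) had a limma adjusted p of 1.26e-05. It was among the 6 called loci of highest mean level. LOC_Os07g26100 (chromosome 7, 14973696 to 14975031) followed the same form, with 29.2 and 42.7 FPKM in jmj705, 0.715 and 0.227 FPKM in wox11, and 0.0890 and 0.0289 FPKM in wild type (difference 5.10, SE 0.24, limma adjusted p = 3.11e-04). LOC_Os02g53240 had 7.59 and 11.7 FPKM in jmj705 and was listed at 0 in the wox11 and wild-type libraries. LOC_Os01g64949 had 6.22 and 8.10 FPKM in jmj705, 0.342 and 0 FPKM in wox11, and was listed at 0 in both wild-type libraries. LOC_Os10g11100 had 7.54 and 9.32 FPKM in jmj705, 0.473 and 0.672 FPKM in wox11, and 0.0510 and 0.0874 FPKM in wild type. LOC_Os08g38800 had 5.10 and 5.21 FPKM in jmj705, 0.257 and 0.130 FPKM in wox11, and 0.0385 and 0.0719 FPKM in wild type. In these 6 loci both jmj705 libraries were high, and the 4 wox11 and wild-type libraries were all under 1 FPKM.

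A second kind of riser was also high in wox11. LOC_Os03g01520 had 9.85 and 10.4 FPKM in jmj705, 9.35 and 10.2 FPKM in wox11, and 0.32 and 0.203 FPKM in wild type. LOC_Os03g43100 was higher still in wox11, with 11.1 and 12.9 FPKM in jmj705, 44.2 and 36.1 FPKM in wox11, and 0.178 and 0.277 FPKM in wild type. The joined locus LOC_Os07g32700 and LOC_Os07g32710 had 187 and 191 FPKM in jmj705, 86.7 and 113 FPKM in wox11, and 2.44 and 2.74 FPKM in wild type. Another joined locus, LOC_Os03g02460 and LOC_Os03g02470, had 77.7 and 97.5 FPKM in jmj705, 68.3 and 61.6 FPKM in wox11, and 2.41 and 3.23 FPKM in wild type. Joined loci are entries in which the authors' annotation merged neighbouring genes, so the level cannot be given to either gene. LOC_Os12g07180 stood between, with 8.13 and 6.19 FPKM in jmj705, 2.45 and 2.72 FPKM in wox11, and 0.0224 and 0.0219 FPKM in wild type. LOC_Os06g21140 likewise had 11.4 and 13.2 FPKM in jmj705, 1.08 and 1.29 FPKM in wox11, and 0.215 and 0.416 FPKM in wild type. LOC_Os04g14690, also among the 12 largest rises, had 9.96 and 15.2 FPKM in jmj705, 6.84 and 7.33 FPKM in wox11, and 0.301 and 1.14 FPKM in wild type. Its call was lost without jmj705 replicate 2. The other 11 kept their call without any 1 of the 6 libraries, with limma adjusted p up to 0.0477.

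Over all 69 risers, 23 had every wild-type and wox11 value under 1 FPKM, and 14 had both wild-type values under 1 FPKM and both wox11 values at 1 FPKM or more. Of all 21480 tested loci these patterns held for 81 and 239. Loci of the first pattern passed the filter only through jmj705, so their count among the risers supports nothing. In the direct test of jmj705 against wox11, which shares the jmj705 libraries with the comparison that chose these loci, 23 of the 69 risers were higher in jmj705, 1 was lower and 45 did not pass. Of the 17 fallers 1 was higher, 1 lower and 15 did not pass. Over all loci that test called 0.172% higher and 0.112% lower in jmj705.

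**Figure D4:**
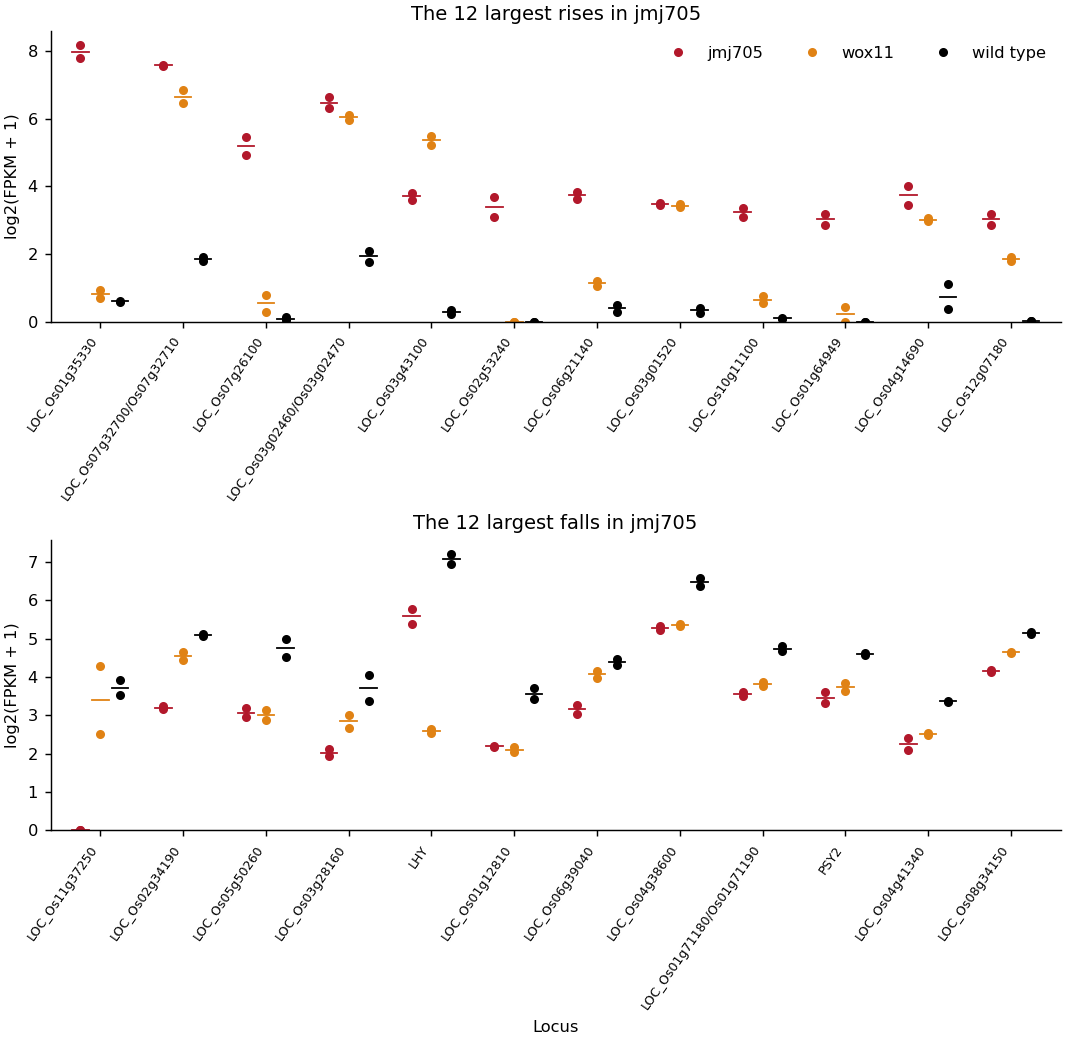
Level in each library as log2(FPKM + 1) for the 12 loci with the largest rise (top) and the 12 with the largest fall (bottom) among called loci with at least 5 FPKM in the higher genotype, with jmj705 in red, wox11 in orange and wild type in black. Points are libraries and lines their mean, and LOC_Os01g35330 stands at 220 and 287 FPKM in jmj705 with the other 4 libraries under 1 FPKM.

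The called falls were of moderate size, and 14 of the 17 were at loci of 10 to 100 FPKM in wild type. This level belongs to the called set. Of the 68 loci with at least a 2-fold gap downward, 52 averaged 1 to 10 FPKM in wild type and 14 averaged 10 to 100 FPKM. LOC_Os02g34190 (chromosome 2, 20450544 to 20454605) had 7.92 and 8.43 FPKM in jmj705, 20.7 and 24.3 FPKM in wox11, and 34.0 and 32.8 FPKM in wild type. Its difference of -1.91 (SE 0.13, limma adjusted p = 0.00183) held under every alternative tried, and it was lower than wox11 as well (limma adjusted p = 0.00685). LOC_Os05g50260 had 6.79 and 8.09 FPKM in jmj705, 7.88 and 6.30 FPKM in wox11, and 31.0 and 22.1 FPKM in wild type. LOC_Os01g12810 had 3.54 and 3.59 FPKM in jmj705, 3.50 and 3.11 FPKM in wox11, and 12.1 and 9.71 FPKM in wild type. Both lost their call without jmj705 replicate 1, jmj705 replicate 2 or wild-type replicate 1 (limma adjusted p 0.103 to 0.164). LOC_Os01g12810 also lost it without either wox11 library (0.0539 and 0.0522). LOC_Os06g39040 had its lowest values in jmj705, with 8.72 and 7.17 FPKM in jmj705, a mean of 15.8 ± 1.59 FPKM in wox11 (SD, n = 2), and 21.2 and 19.0 FPKM in wild type, and its call was lost without any 1 of the 6 libraries (limma adjusted p 0.0522 to 0.169).

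The faller with the widest difference, LOC_Os11g37250 (chromosome 11, 21925866 to 22202954), was listed at 0 in both jmj705 libraries and had 18.6 and 4.69 FPKM in wox11, against 10.5 and 14.1 FPKM in wild type. It shares coordinates with other entries, so its reads can be divided among them. Its call was lost without either jmj705 or either wild-type library (limma adjusted p 0.0971 to 0.180). LOC_Os04g38600 had 39.3 and 36.4 FPKM in jmj705, 39.6 and 41.0 FPKM in wox11, and 94.7 and 81.4 FPKM in wild type, and lost its call without jmj705 replicate 1, jmj705 replicate 2 or wild-type replicate 1 (0.0753 to 0.123). LOC_Os08g34150 had 17.3 and 16.6 FPKM in jmj705, 23.9 and 24.0 FPKM in wox11, and 35.2 and 33.7 FPKM in wild type. The joined locus LOC_Os01g71180 and LOC_Os01g71190 had 10.4 and 11.3 FPKM in jmj705, 12.5 and 13.7 FPKM in wox11, and 24.6 and 27.0 FPKM in wild type. In both, all 4 mutant libraries lay below both wild-type libraries, and both calls were lost without any 1 of the jmj705 or wild-type libraries (limma adjusted p 0.0633 to 0.150). LOC_Os08g34150 lost it also without either wox11 library (0.0539 and 0.0522). LOC_Os04g41340, whose locus shares coordinates with another entry, had 4.35 and 3.29 FPKM in jmj705, 4.6 and 4.83 FPKM in wox11, and 9.43 and 9.21 FPKM in wild type, and lost its call without any 1 of the 6 libraries (0.0763 to 0.236). PSY2 (LOC_Os12g43130), a phytoene synthase at the entry to carotenoid synthesis, was named after its values were seen. It had 11.2 and 8.96 FPKM in jmj705, 13.4 and 11.4 FPKM in wox11, and 23.5 and 22.9 FPKM in wild type (difference -1.14, SE 0.15, limma adjusted p = 0.0345). Its groups did not overlap, and its call was lost without any 1 of the 6 libraries (0.0633 to 0.192).

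Of the 196 listed genes tested 4 passed, beside 0.400% of all loci. Of these 4, 2 belong to the circadian clock, an evening gene that rose and a morning gene that fell. The clock list held 14 genes, of which 8 were tested. GI (LOC_Os01g08700), the rice GIGANTEA of the evening clock, had 147 and 140 FPKM in jmj705, 197 and 213 FPKM in wox11, and 43.9 and 56.6 FPKM in wild type. It rose by 1.51 (SE 0.15, limma adjusted p = 0.0140). LHY (LOC_Os08g06110), a MYB transcription factor that peaks around dawn, had 54.1 and 40.9 FPKM in jmj705, 5.31 and 4.85 FPKM in wox11, and 147 and 123 FPKM in wild type. It fell by 1.49 (SE 0.16, limma adjusted p = 0.0187), and it was higher in jmj705 than in wox11 (limma adjusted p = 6.27e-04). The remaining 6 of the 8 clock genes tested did not pass. PRR1, a TOC1-type pseudo-response regulator, had 32.7 and 32.3 FPKM in jmj705, 44.2 and 41.4 FPKM in wox11, and 13.5 and 23.2 FPKM in wild type (limma adjusted p = 0.204). PRR95 had 58.8 and 65.7 FPKM in jmj705, 39.2 and 22.1 FPKM in wox11, and 15.6 and 35.3 FPKM in wild type (limma adjusted p = 0.218). LUX, a part of the evening complex, had 3.8 and 6.11 FPKM in jmj705, 45.9 and 48.2 FPKM in wox11, and 0.913 and 3.44 FPKM in wild type (limma adjusted p = 0.350).

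Both jmj705 values of these last 3 genes lay above both wild-type values, as at 17.5% of all loci, and the median difference of the clock list was 0.54, beside -0.02 over all loci. PRR73, PRR37 and ELF3-1 had differences of 0.24, -0.11 and -0.02. The 2 wild-type libraries were far apart in several clock genes, with LUX at 0.913 and 3.44 FPKM. The hour at which each library was collected is not given, and its part in these values was not tested. The call of GI was lost without jmj705 replicate 1 (limma adjusted p = 0.0837), jmj705 replicate 2 (0.106) or wild-type replicate 1 (0.0887), and that of LHY without jmj705 replicate 2 (0.106) or wild-type replicate 1 (0.126).

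The light harvesting, photosystem and Calvin cycle genes tested had lower values in jmj705, with 1 past the test. Of 33 light harvesting and photosystem genes listed 8 were tested. All 8 had both jmj705 values below both wild-type values, as did 21.5% of all loci. Their median difference was -0.76, 4 were lower before adjustment (p under 0.05), beside 5.85% of all loci, and 0 passed limma's adjusted threshold. LHCB2, an antenna protein of photosystem II, had 135 and 118 FPKM in jmj705, 95.5 and 42.3 FPKM in wox11, and 255 and 256 FPKM in wild type (limma adjusted p = 0.283). LHCB4, a minor antenna protein, had 93.8 and 68.5 FPKM in jmj705, 110 and 69.1 FPKM in wox11, and 166 and 144 FPKM in wild type (limma adjusted p = 0.195). PSAH, a subunit of photosystem I, had 54.4 and 46.7 FPKM in jmj705, 57.1 and 40.5 FPKM in wox11, and 101 and 82.4 FPKM in wild type (limma adjusted p = 0.146).

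Of 15 Calvin cycle genes listed 3 were tested, of which 1 fell, beside 0.0791% of all loci. RCA (LOC_Os11g47970), the Rubisco activase, had 14.2 and 14.3 FPKM in jmj705, 11.4 and 10.5 FPKM in wox11, and 27.9 and 25 FPKM in wild type (difference -0.85, SE 0.12, limma adjusted p = 0.0487). Its locus shares coordinates with another entry, and its call was lost without any 1 of the 6 libraries (0.0872 to 0.264). FBA, a fructose-bisphosphate aldolase, had 84.7 and 79.2 FPKM in jmj705, 82.2 and 87.0 FPKM in wox11, and 134 and 129 FPKM in wild type (limma adjusted p = 0.0790). CFBP1, a fructose-bisphosphatase, had 2.12 and 1.94 FPKM in jmj705, 5.22 and 4.70 FPKM in wox11, and 4.83 and 5.02 FPKM in wild type (limma adjusted p = 0.0555).

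Among 12 chlorophyll synthesis genes 0 passed limma's adjusted threshold, 6 were lower before adjustment (p under 0.05), beside 5.85% of all loci, and 9 had both jmj705 values below both wild-type values, beside 21.5%. The list's median difference was -0.42. CHLP, a geranylgeranyl reductase that makes the phytol tail of chlorophyll, had 42.5 and 31.0 FPKM in jmj705, 38.7 and 30.9 FPKM in wox11, and 80.1 and 68.4 FPKM in wild type (limma adjusted p = 0.0903). CHLH, a subunit of magnesium chelatase, had 20.4 and 13.4 FPKM in jmj705 and 34.3 and 31.5 FPKM in wild type (limma adjusted p = 0.125). GLK1 and GLK2, transcription factors that switch on such genes, had differences of -0.17 and -0.24. The green leaf markers CAB2R and RCA, themselves members of these lists, summed to 317 and 304 FPKM in jmj705, 246 and 112 FPKM in wox11, and 550 and 509 FPKM in wild type, and neither was at 0. In whole apices fewer green cells and less RNA per green cell cannot be told apart. Their part in the lower photosynthesis genes was not tested.

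**Figure D5:**
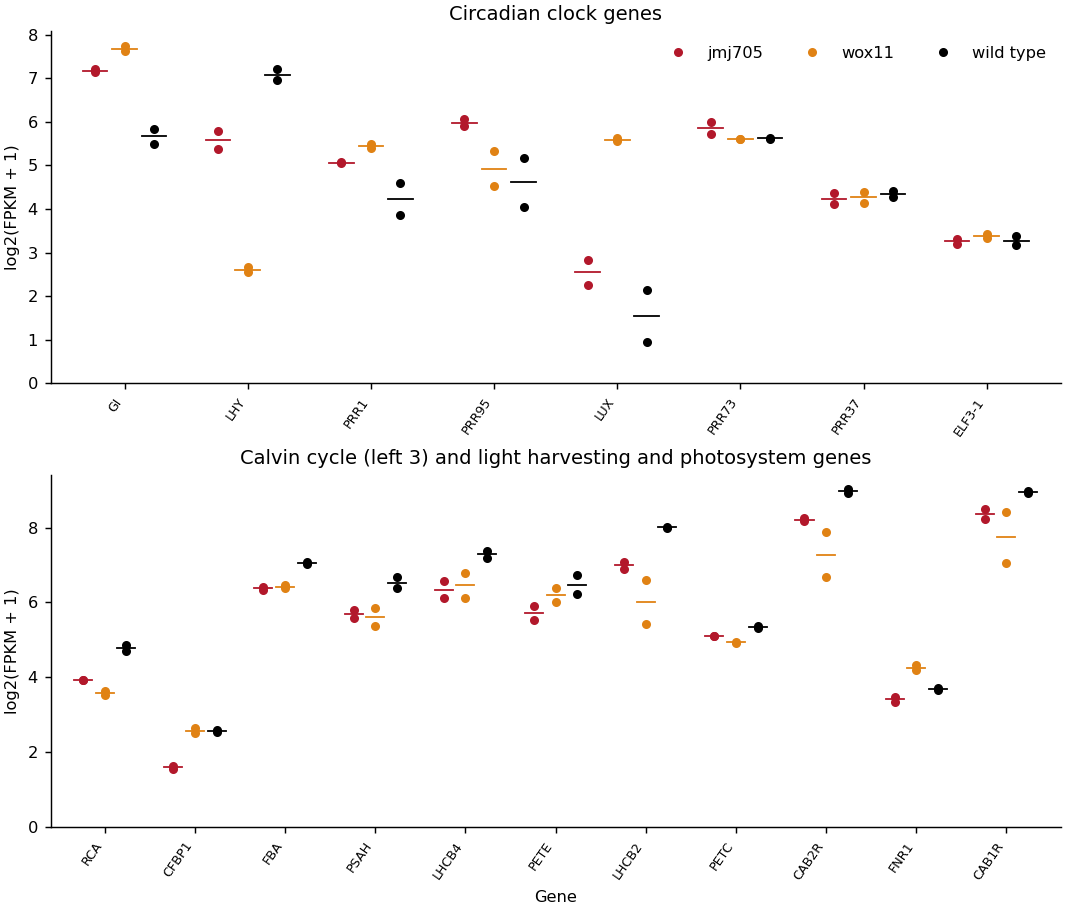
Level in each library as log2(FPKM + 1) for the 8 clock genes tested (top) and for the 3 Calvin cycle and 8 light harvesting and photosystem genes tested (bottom), with jmj705 in red, wox11 in orange and wild type in black, and lines at the means. GI is higher and LHY lower in jmj705 than in wild type, and all 11 genes below have both jmj705 points under both wild-type points.

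CATA (LOC_Os02g02400), a catalase that removes hydrogen peroxide in peroxisomes, had 207 and 350 FPKM in jmj705, 237 and 242 FPKM in wox11, and 49.5 and 73.1 FPKM in wild type (difference 2.14, SE 0.27, limma adjusted p = 0.0328). Of the 5 other photorespiration genes 0 passed and 2 were lower before adjustment (p under 0.05), beside 5.85% of all loci. GLO1, a glycolate oxidase, had 7.89 and 8.06 FPKM in jmj705 and 10.8 and 10.5 FPKM in wild type (limma adjusted p = 0.258). The call of CATA was lost without jmj705 replicate 2 (0.135), wild-type replicate 1 (0.171) or either wox11 library (0.0693 and 0.0699). 3 risers outside the lists were named after their values were seen. CIPK10 (LOC_Os03g22050), a kinase that works with calcium sensors, had 18.4 and 26.8 FPKM in jmj705, 23.9 and 13.7 FPKM in wox11, and 2.90 and 4.57 FPKM in wild type. CHT11 (LOC_Os03g04060), a chitinase, had 11.9 and 11.5 FPKM in jmj705, 7.55 and 3.73 FPKM in wox11, and 2.42 and 1.14 FPKM in wild type. SUS4 (LOC_Os03g22120), a sucrose synthase, had 13.8 and 15.0 FPKM in jmj705, 11.4 and 8.91 FPKM in wox11, and 6.55 and 5.93 FPKM in wild type. Each of the 3 lost its call without any 1 of the jmj705 or wild-type libraries (limma adjusted p 0.0538 to 0.190), and SUS4 also without either wox11 library (0.0650 and 0.0634).

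3 further risers were among the 6 called loci of highest mean level. LOC_Os03g53590 had 196 and 244 FPKM in jmj705, 201 and 232 FPKM in wox11, and 41.0 and 53.1 FPKM in wild type (difference 2.21, limma adjusted p = 0.00509), and lost its call without jmj705 replicate 2 (0.0573). LOC_Os05g33140 had 167 and 217 FPKM in jmj705, 71.8 and 58.3 FPKM in wox11, and 48.6 and 25.4 FPKM in wild type, and lost its call without either jmj705 or either wox11 library (0.0522 to 0.165). LOC_Os01g04050 had 174 and 198 FPKM in jmj705, 155 and 115 FPKM in wox11, and 65.1 and 75.9 FPKM in wild type, and lost its call without any 1 of the jmj705 or wild-type libraries (0.0712 to 0.199).

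In all, 196 listed genes were tested, of which 2 rose (GI and CATA), 2 fell (LHY and RCA) and 192 did not pass. Over all loci 0.321% rose and 0.0791% fell. At an unadjusted p under 0.05, 17 of the 196 genes were higher and 26 lower, beside 6.15% and 5.85% of all loci. For the lists nearest to the known roles of JMJ705 the test gave 0 calls among the members tested, and many members were not tested. In the jasmonate and defence list 12 of 23 genes were tested, of which 0 passed by limma and 0 had an unadjusted p under 0.05. Its median difference was 0.49, and 11 of 12 were positive, beside 46.3% of all loci tested. Only 1 of the 12 had both jmj705 values above both wild-type values, beside 17.5% of all loci. JAZ10, a repressor of jasmonate signalling, had 122 and 21.8 FPKM in jmj705 and 10.3 and 53.2 FPKM in wild type, so that the libraries of one genotype differed more than the genotypes. In the list of Polycomb members and demethylases 4 of 13 genes were tested and 0 passed, none of them at a p under 0.05 before adjustment. The demethylase gene JMJ703 had 18.4 and 16.8 FPKM in jmj705 and 18.7 and 17.1 FPKM in wild type.

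Of 7 drought and abscisic acid genes 0 passed by limma. Beside 6.15% of all loci, 3 were higher before adjustment (p under 0.05). Among these, DREB1A, a cold- and drought-related transcription factor, had 7.03 and 6.18 FPKM in jmj705, 2.49 and 5.32 FPKM in wox11, and 1.31 and 1.91 FPKM in wild type (limma adjusted p = 0.0902). Of 8 heat shock genes 0 passed, and 3 were lower before adjustment (p under 0.05), beside 5.85% of all loci. The list median was -1.02. HSP101, a chaperone that resolves protein aggregates, had 1.44 and 1.13 FPKM in jmj705, 1.30 and 0.871 FPKM in wox11, and 11.9 and 1.91 FPKM in wild type, and HSP24.1 had 15.4 and 4.10 FPKM in jmj705 and 117 and 9.03 FPKM in wild type. Wild-type replicate 1 alone was high in both. HSP101 passed without wild-type replicate 2 (limma adjusted p = 0.0191).

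Of 10 genes of the meristem list 0 passed limma's test, and 2 were lower before adjustment (p under 0.05), beside 5.85% of all loci. A positive difference was seen in 5, beside 46.3% of all loci. PLA1, a cytochrome P450 that sets the pace of leaf initiation, had 10.9 and 8 FPKM in jmj705 and 17.5 and 13.4 FPKM in wild type (limma adjusted p = 0.237). Of 13 YABBY and leaf polarity genes 0 passed by limma, and 11 had a negative difference, beside 11543 of all 21480 loci. Before adjustment 1 was lower (p under 0.05), beside 5.85% of all loci. That one was HB3, a homeodomain factor of the kind that sets the upper side of leaves, which had 60.9 and 62.1 FPKM in jmj705 and 80.7 and 79.5 FPKM in wild type (limma adjusted p = 0.251). Of 12 cell division genes 0 passed, with a median of -0.03 and 0 at an unadjusted p under 0.05. Of 15 auxin genes 0 passed, and 3 had a p under 0.05 before adjustment (IAA13, IAA9 and GH3.2), all higher, beside 6.15% of all loci. For flowering and photoreceptors (5 tested), chloroplast biogenesis (3), nitrogen assimilation (4), starch and sucrose (5), growth-regulating factors (8), floral MADS-box (4), DNA methylation and small RNA (6), cytokinin (10), gibberellin (5), cell wall and vascular (12), root (5), hypoxia (3), iron (2) and phosphate genes (3), 0 passed by limma, and list medians lay between -0.18 and 0.29. Of these 75 genes 4 were higher and 4 lower before adjustment (p under 0.05), near the 6.15% and 5.85% of all loci. The single phytoalexin gene tested, MAS, had 1.65 and 0.977 FPKM in jmj705 and 0.0636 and 0.186 FPKM in wild type (limma adjusted p = 0.140), and 0 of 4 seed genes reached the filter.

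JMJ705 peaks were then set beside the changed loci. They were called by the authors in apices that over-express tagged JMJ705, in 1 library per background, so they show where the tagged enzyme was found and not where it acts in the plants whose RNA was measured. In the wild-type background 4 of 69 risers had a peak within 1000 bp (5.80%, exact 95% interval 1.60 to 14.2%), as did 3 of 17 fallers (17.6%, 3.8 to 43.4%) and 897 of 21480 tested loci (4.18%). In the wox11 background it was 1 of 69 risers (1.45%, 0.0367 to 7.81%), 2 of 17 fallers (11.8%, 1.46 to 36.4%) and 757 of all loci (3.52%). The 2 peak lists differ in quality. A false discovery rate of at most 5% was reached by 0 of 1309 peaks in the wox11 background and by 1532 of 1551 in the wild-type background. At this distance the intervals of both sets hold the share of all loci in both backgrounds, and no test was made. Where a peak had to overlap the locus, 17.6% of fallers (3.8 to 43.4%) had one in the wild-type background. The share of all loci was then 3.58%, which that interval no longer holds. Among the 39 risers under 1 FPKM in wild type 3 had a peak in the wild-type background (7.69%, 1.62 to 20.9%), beside 5.65% of all 920 loci of that level.

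The fallers with a peak in the wild-type background were LHY, LOC_Os06g39040 and LOC_Os11g37250, and the last 2 had one in the wox11 background too. LOC_Os11g37250 is a long entry (21925866 to 22202954) that shares coordinates with others, and a peak anywhere along it was counted. The risers with a peak in the wild-type background were LOC_Os12g14224, LOC_Os03g25510, LOC_Os12g24050 and SUS4, each overlapped by a peak. The first 3 were silent or nearly so in wild type. LOC_Os12g14224 had 4.18 and 4.82 FPKM in jmj705, 5.78 and 5.84 FPKM in wox11, and 0.112 and 0 FPKM in wild type. LOC_Os03g25510 had 2.32 and 3.00 FPKM in jmj705, 3.06 and 1.51 FPKM in wox11, and was listed at 0 in both wild-type libraries. LOC_Os12g24050 had 2.79 and 2.1 FPKM in jmj705, 3.43 and 2.36 FPKM in wox11, and 0.0140 and 0.00687 FPKM in wild type. The wox11-background peak lay 119 bp from LOC_Os08g41880, which had 47.3 and 67.7 FPKM in jmj705, 60.5 and 52.4 FPKM in wox11, and 15.0 and 18.1 FPKM in wild type. LOC_Os12g14224 kept its call under every alternative tried. LOC_Os03g25510 and LOC_Os12g24050 lost theirs without any 1 of the jmj705 or wild-type libraries (limma adjusted p 0.0712 to 0.192), and LOC_Os08g41880 without jmj705 replicate 2 (0.0970) or wild-type replicate 1 (0.126).

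Called loci were found on all 12 chromosomes. The percent called was highest on chromosome 8, with 13 of 1367 tested loci (0.951%, 10 higher and 3 lower), and on chromosome 10, with 8 of 1110 (0.721%, 7 higher and 1 lower). It was lowest on chromosome 9, with 1 of 1191 (0.084%). Called neighbours close to each other (within 100000 bp) formed 6 pairs. In 3 both members were higher, in 1 both were lower and in 2 they differed in direction. CIPK10 and SUS4 on chromosome 3 lay 39280 bp apart with 1 tested locus between them. LOC_Os05g05020 and LOC_Os05g05030 lay 11649 bp apart with 0 between, and LHY lay 87239 bp from LOC_Os08g06280, another faller, with 8 tested loci between. LOC_Os05g05020 had 11.8 and 15.7 FPKM in jmj705, 28.1 and 24.9 FPKM in wox11, and 5.03 and 5.88 FPKM in wild type.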

How the data were processed

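The authors deposited FPKM values per locus with confidence bounds, per the file headers, and the submitters' processing notes name Trimmomatic, TopHat and Cufflinks for them. MACS 1.4.2 made the peak lists with a p-value cutoff of 1.00e-05, per the file headers. As deposited, each peak has a tag count, a score taken from its p-value on a log10 scale, a fold over input (a ratio) and its false discovery rate as a percent, of which only the last was used, in 1 alternative. The 6 tables were joined on their identifier. Left out were 1848 loci without a gene name and 13 with a failed estimate. Log2(FPKM + 1) values of 21480 loci (at least 1 FPKM in at least 2 of 6 libraries) were fitted in limma 3.58.1 (R 4.3.3), using 1 mean for each genotype, a mean-variance trend (residual df 3, prior df 4.25) and a Benjamini-Hochberg threshold of 0.05. In simulated data for this comparison, 200 of 21480 loci changed, 44% of 2-fold and 85% of 4-fold changes were called, and 3.33% of calls were false. The simulated noise was normal and independent between libraries, and changes fell on random loci in random direction. These rates hold for that setting and give no error rate for the called loci. Starts of loci were raised by 1, since Cufflinks counts from 0.

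Loci named are JMJ705 and WOX11, called members of 30 gene lists and up to 3 more per list, the 12 largest rises and falls with at least 5 FPKM, the 6 lowest in wild type and 6 highest in mean, and up to 6 with a peak. The comparison, lists and rule were chosen with earlier results of these data known. Of 378 listed genes, 245 have a symbol at a like place (within 100000 bp of the shift of their neighbours) in the RefSeq table of assembly ASM3414082v1, and only these were counted. 4 genes were named after their values were seen. Intervals of shares are exact binomial ones and cover counting error only. Promoter sequences were not used here.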

Additional observations from a re-analysis of the deposited data

How the results depend on the processing

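Of 86 loci called, 10 kept their call under all 16 alternatives, 9 higher and 1 lower. Without 1 library in turn the called loci numbered 20 to 66 (19 to 60 higher, 1 to 14 lower), 78.1 to 95.7% of them higher, with 42.0 to 73.7% of risers under 1 FPKM in wild type at a median of 0.0692 to 1.51 FPKM. Listed genes called were then 0 to 3 higher and 0 to 2 lower. Quantile normalization left 55 called, 9 of them lower. The lower loci numbered 8 with no FPKM filter, 8 with median-ratio scaling and 5 in a fit of 2 genotypes, where 91.9% of calls were higher. The percent of risers under 1 FPKM in wild type and their wild-type median were 90.7% and 0.0112 FPKM with no filter, and 27.4% and 3.41 FPKM with a filter of 5 FPKM, which by construction admit more and fewer low loci. That median was also 0.720 FPKM in a fit of 2 genotypes, 0.359 FPKM with no trend and 1.31 FPKM without joined and overlapping loci. Listed genes called lower were 1 with either other pseudocount, quantile normalization, median-ratio scaling or without joined and overlapping loci, and 0 in a fit of 2 genotypes. With no filter 0 were called in either direction. Asking for overlap left 0% of risers with a peak in the wox11 background. Where no cause is named, the cause was not tested.

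With the replicate number as a block, 89 loci were called, 60 higher and 29 lower (67.4% higher), with a riser median of 0.793 FPKM in wild type and 4 listed genes lower, LHY, CHLP, PSAH and PETE (limma adjusted p = 0.0272, 0.0436 and 0.0487 for CHLP, PETE and PSAH), while RCA lost its call, and 62 loci were shared with the fit without the block. The deviations of same-numbered libraries correlated at 0.118 for jmj705 with wild type, 0.114 for jmj705 with wox11 and 0.292 for wox11 with wild type. With 2 numbers per genotype this cannot settle whether the numbers pair the libraries.

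Of 120 named genes under these alternatives, 1705 values stayed on their side of the threshold, 168 lost a call and 10 gained one. The sign changed in 29 values of 21 genes, 0 of them called in either fit. The filter on a false discovery rate of 5% was not run for the wox11-background peaks, of which 0 reach it. Total depth is unknown, so values near 0 FPKM carry an error that cannot be given, and 2 libraries per genotype limit every test.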
